A study of Mus musculus with 6 samples.

Results

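The dual-specificity MAP kinase phosphatases described here are 7 genes, Dusp1, Dusp2, Dusp4, Dusp5, Dusp6, Dusp10 and Dusp16, chosen by name from the 23398 genes of the expression table, and each was found once. They were measured by RNA sequencing in mouse bone marrow derived dendritic cells, cultured antigen presenting cells that prime T lymphocytes. The 3 nanoparticle libraries came from cells exposed to Ca(OH)2 nanoparticles for 12 hours and the 3 vehicle libraries from cells given vehicle for the same time. The labels give no strain, genotype, age, sex, particle dose or growth factor for either group, and do not say whether the libraries came from separate cultures or animals, so p-values measure the spread between these libraries, which may be technical.

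MAP kinases (ERK, JNK and p38) are switched on when their activation loop is phosphorylated on both a threonine and a tyrosine, and the dual-specificity phosphatases remove both phosphates. Dusp1, Dusp2, Dusp4 and Dusp5 encode nuclear enzymes, Dusp6 encodes a cytoplasmic enzyme selective for ERK, and Dusp10 and Dusp16 encode enzymes that prefer JNK and p38. Several of these genes are themselves induced by MAP kinase signalling, which makes them negative feedback regulators, and in myeloid cells Dusp1 is known for limiting p38 and JNK activity and cytokine production after stimulation of Toll-like receptors.

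Promoter sequences are shown for a pair of members that were higher with nanoparticles and whose upstream bases hold different known elements. RefSeq windows on GRCm38.p6 were found for 6 of the 7 genes (all but Dusp4), and the 250 bases before the transcript start were searched on both strands. The Dusp1 window is chr17:26508473-26508722, minus strand, and the Dusp5 window is chr19:53528895-53529144, plus strand. Capitals in Dusp1 mark, in order, the core letters TGACG of a cyclic AMP response element, a full element TGACGTCA and an E-box CACGTG, and in Dusp5 a pair of adjacent serum response elements (CArG boxes) and the core TGACG read on the other strand (CGTCA).
Dusp1: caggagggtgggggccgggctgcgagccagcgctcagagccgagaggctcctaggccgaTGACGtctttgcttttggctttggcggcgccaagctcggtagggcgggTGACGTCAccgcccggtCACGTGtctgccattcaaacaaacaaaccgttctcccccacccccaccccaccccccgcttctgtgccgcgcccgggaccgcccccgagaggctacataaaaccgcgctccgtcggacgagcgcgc
Dusp5: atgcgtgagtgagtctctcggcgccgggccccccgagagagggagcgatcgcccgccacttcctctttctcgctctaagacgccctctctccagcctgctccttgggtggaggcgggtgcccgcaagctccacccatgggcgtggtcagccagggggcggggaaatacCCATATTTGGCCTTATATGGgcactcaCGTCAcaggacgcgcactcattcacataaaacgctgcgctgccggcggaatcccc
The full element of Dusp1 lies at -143 to -136 from the start and contains the core on both strands. TGACGTCA occurred in 1.55% of the 32851 windows of this length, the core TGACG in 17.8%, CACGTG in 6.02% and the serum response element in 1.47%. Among the other windows, Dusp2 held a CACGTG and Dusp16 a TGACG, and Dusp6 and Dusp10 held none of the letters searched. The AP-1 motif TGANTCA (6.75% of all windows), the kappaB site (7.25%) and the TATA box TATAAA (12.4%) were not in any of the 6 windows. These matches describe letters in the reference genome, and no binding was measured.

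The deposited values are FPKM (reads per kilobase of gene on a scale shared between libraries), so levels can be compared between genes. Recovered totals were 17283470 to 21978083 reads per library. Between pairs of vehicle libraries the correlation of log2(FPKM + 1) over 10682 tested genes, which are not independent replicates, was 0.993 to 0.994, and between nanoparticle libraries 2 and 3 it was 0.990. Nanoparticle library 1 stood apart from both, at 0.942 and 0.928, and results are therefore also given without it. The dendritic cell markers Itgax and Cd74 were abundant in all libraries, while Flt3 was at most 0.0793 FPKM. Macrophage markers were also present, and their summed level was 1095 to 1229 FPKM in vehicle and 1445 to 1851 FPKM in nanoparticle libraries, with 4 of the 10 genes higher and 4 lower. The dendritic cell sum over 11 genes was 5182 to 5574 FPKM in vehicle and 2959 to 6618 FPKM with nanoparticles, lowest in library 1, with 1 gene higher and 4 lower. Irf8 was the higher gene, and Cd209a, Clec10a, Ciita and Zbtb46 were the lower ones. Cd209a was at 5.17 to 6.21 FPKM in vehicle and at most 0.0763 FPKM with nanoparticles. Clec10a was at 5.63 to 7.62 FPKM in vehicle and 0.507 to 1.04 FPKM with nanoparticles. Irf8 was at 8.47 to 8.82 FPKM in vehicle and 18.4 to 24.1 FPKM with nanoparticles. The neutrophil sum over 11 genes was 35.8 to 40.3 FPKM in vehicle and 56.0 to 128 FPKM with nanoparticles, most of it S100a8, with 2 of the 3 tested genes higher and 0 lower. Those were S100a8 and Csf3r, the latter at 0.518 to 0.695 FPKM in vehicle and 3.85 to 4.90 FPKM with nanoparticles (limma adjusted p = 2.3e-04). S100a9 was at 0.962 to 1.65 FPKM in vehicle and at 0.352, 13.2 and 10.2 FPKM with nanoparticles (limma adjusted p = 0.2464). Ngp and Camp, below the filter, were likewise highest in nanoparticle libraries 2 and 3. Cxcr2, also below the filter, went the other way, from 0.395, 0.761 and 0.801 FPKM in vehicle to 0.0201, 0.139 and 0 FPKM with nanoparticles. The defining markers Ly6g, Elane and Mpo stayed at or below 0.307 FPKM. The sum over the 6 mast cell and basophil genes in the table was 3.93 to 6.12 FPKM in vehicle and 10.3 to 26.1 FPKM with nanoparticles, with 1 of the 4 tested genes higher and 1 lower. The higher sum came from Hdc, the histamine-forming enzyme, which went from 0.196, 0.474 and 0.345 to 24.1, 6.69 and 6.76 FPKM. Gata2 fell (log2 change -0.76, limma adjusted p = 0.0190), Kit and Cpa3 did not pass, and Mcpt8 and Ms4a2 were at or near 0. T, B and NK cell sums were at most 1.94, 0.394 and 0.137 FPKM. The part of cell composition in the results below was not tested, and in such bulk samples fewer cells of a type and less RNA per cell cannot be told apart.

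Of the 7 phosphatase genes, 5 were higher with nanoparticles past the threshold (Dusp1, Dusp2, Dusp4, Dusp5 and Dusp16), 1 was lower (Dusp6) and Dusp10 did not pass. The test was limma's moderated test on log2(FPKM + 1) with a Benjamini-Hochberg adjusted p under 0.05 over all 10682 tested genes, of which 17.0% were called higher, 16.2% lower and 33.2% either way. All 7 genes separated the groups without overlap, 6 of them upward and Dusp6 downward, where 25.9% of tested genes lay apart upward, 26.2% downward and 52.1% either way. The median log2 change of the 7 genes was 0.89, against 0.00 for all tested genes. Dusp2 and Dusp10 reached the filter of 1 FPKM in at least 3 libraries only through the nanoparticle group, so they entered the test because they were higher there. Among the 5 genes above 1 FPKM in every library, 4 were called higher and 1 lower. With no filter, all 23398 genes were tested, of which 14.4% were called (6.99% higher and 7.46% lower), and the calls among the members were 3 higher (Dusp1, Dusp2 and Dusp4) and 0 lower by limma, with 5 higher and 1 lower at an unadjusted p under 0.05. Without nanoparticle library 1, 64.8% of all genes were called, 34.3% higher and 30.5% lower, and all 7 members passed, 6 higher and 1 lower. The filter was not redone for this fit and the same 10682 genes were tested. Dusp2 and Dusp10 were thus still tested through library 1, without which they fall short of the filter.

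**Figure D1:**
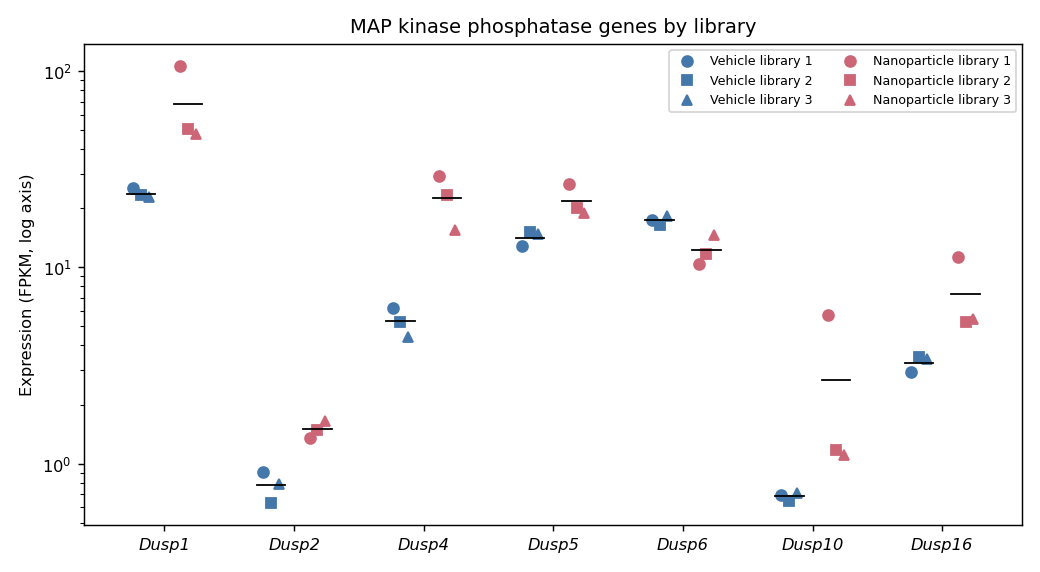
FPKM of each phosphatase gene (log axis) in the 3 vehicle libraries (blue) and the 3 nanoparticle libraries (red), with black bars at the group means. The groups lie apart in every gene, Dusp6 is the single gene that is lower with nanoparticles, and nanoparticle library 1 is far above libraries 2 and 3 in Dusp1, Dusp10 and Dusp16.

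Among the nuclear phosphatases, Dusp4 (ENSMUSG00000031530, chr8:34807297-34819894, plus strand, GENCODE M21 on GRCm38), whose product acts on ERK and JNK, had the largest fitted change of the members. It was at 6.19, 5.28 and 4.44 FPKM in vehicle libraries 1 to 3 and at 29.2, 23.4 and 15.5 FPKM in nanoparticle libraries 1 to 3. The lowest nanoparticle library thus lay far above the highest vehicle library. The means were 5.31 ± 0.876 and 22.7 ± 6.85 FPKM (SD, n = 3 each), a ratio of 4.28, and limma gave a log2 change of 1.88 ± 0.237 (SE) with an adjusted p of 0.0018. Dusp4 was the single member that passed under all 15 alternatives, with log2 changes of 1.45 to 2.11.

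Dusp1 (ENSMUSG00000024190, minus strand of chromosome 17, 26505590 to 26562128), the p38 and JNK phosphatase, was the most abundant member in both groups. Its FPKM were 25.3, 23.3 and 22.8 in vehicle and 106, 50.8 and 48.0 with nanoparticles. Library 1 held 2.15 times the mean of nanoparticle libraries 2 and 3, which were close to each other and still 2.08 times the vehicle mean. The means were 23.8 ± 1.30 and 68.4 ± 33.0 FPKM (SD, n = 3 each), and limma gave a log2 change of 1.39 ± 0.305 (SE) with an adjusted p of 0.0151. Leaving out nanoparticle library 1 gave 1.02 ± 0.0650 (SE) and an adjusted p of 3.3e-05 by limma. Dusp1 passed under 11 of the 15 alternatives and missed the threshold when any single vehicle library was left out (limma adjusted p from 0.0524 to 0.0607) and when libraries were scaled to equal sums of FPKM (0.0743). The GENCODE M21 span of Dusp1 holds the promoter window shown above and overlaps 4 other annotated genes. They include Ergic1 on the opposite strand and, on the strand of Dusp1, a sense intronic transcript and a processed pseudogene. The deposited Dusp1 values gave whole reads with a length of 2697 in place of the 3311 bases of GENCODE M21, so the counting may have used another span. The strand setting of the counting is not given in the sources used here.

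Dusp5 (ENSMUSG00000034765, plus strand of chromosome 19, 53529109 to 53542431), an ERK-selective nuclear phosphatase, changed less. It was at 12.8, 15.1 and 14.7 FPKM in vehicle and 26.6, 20.04 and 18.9 FPKM with nanoparticles. The groups lay apart, with vehicle library 2 and nanoparticle library 3 the nearest to each other. Its log2 change by limma was 0.58 ± 0.153 (SE), with an adjusted p of 0.0301, from means of 14.2 ± 1.23 and 21.8 ± 4.15 FPKM (SD, n = 3 each). Dusp5 passed under 7 of the 15 alternatives. It missed the threshold when any single vehicle library (limma adjusted p from 0.0820 to 0.1197) or nanoparticle library 2 (0.0606) was left out, with no filter (0.0562) and with the replicate number of the labels as a block (0.0795). It also missed it under both other scalings. With total recovered reads as the scale the log2 change was 0.25 (limma adjusted p = 0.2614) and with equal sums of FPKM 0.13 (limma adjusted p = 0.6140), where the median of all genes moved to -0.28 and -0.38. Relative to those medians the Dusp5 change was 0.53 and 0.52. An antisense gene is annotated across it.

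Dusp2 (ENSMUSG00000027368, plus strand of chromosome 2, 127336159 to 127338376), an ERK and p38 phosphatase of activated leukocytes, was expressed at a low level. Its FPKM were 0.902, 0.630 and 0.789 in vehicle and 1.35, 1.48 and 1.66 with nanoparticles, and library 1 was here the lowest of the nanoparticle libraries. These values rest on 25 to 36 reads in vehicle and 44 to 64 reads in nanoparticle libraries. The exact Poisson 95% interval of the lowest, 25 reads, was 16.2 to 36.9 reads and covers counting error only. The mean ratio was 1.93, and the log2 change of 0.49 (SE 0.109, limma adjusted p = 0.0153), which understates the change of so low a gene, became 0.88 with a pseudocount of 0.1. Dusp2 passed under 9 of 14 alternatives and missed the threshold without vehicle library 2 or 3 (limma adjusted p = 0.0717 and 0.0633), under both other scalings (0.0517 and 0.0968) and with the replicate block (0.0539).

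The ERK-selective cytoplasmic phosphatase Dusp6 (ENSMUSG00000019960, plus strand of chromosome 10, 99263231 to 99267489), whose transcription is known to follow ERK activity, was the single member that fell. It was at 17.4, 16.5 and 18.4 FPKM in vehicle and 10.4, 11.7 and 14.6 FPKM with nanoparticles. All nanoparticle libraries lay below all vehicle libraries. The means were 17.5 ± 0.920 and 12.2 ± 2.12 FPKM (SD, n = 3 each), and by limma the log2 change was -0.49 ± 0.137 (SE) with an adjusted p of 0.0363. The log2 change was -0.93 to -0.39 under the 15 alternatives, and the threshold was passed in 9 of them. As the groups lay apart, leaving out a library or changing the pseudocount could not turn the direction of Dusp6. Leaving out any vehicle library or nanoparticle library 2 ended the call (limma adjusted p from 0.0981 to 0.1376), as did removing the filter (0.0627) and the replicate block (0.0613).

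The JNK and p38 phosphatase Dusp16 (ENSMUSG00000030203, minus strand of chromosome 6, 134715468 to 134792625) was at 2.93, 3.47 and 3.41 FPKM in vehicle and 11.2, 5.26 and 5.48 FPKM with nanoparticles. As in Dusp1, library 1 held about the sum of the other nanoparticle libraries, at 2.09 times their mean. With all libraries limma gave a log2 change of 0.89 ± 0.267 (SE) and an adjusted p of 0.0447, and without library 1 it gave 0.58 ± 0.0863 (SE) and 0.0013. Dusp16 passed under 8 of the 15 alternatives. It missed the threshold without any single vehicle library (limma adjusted p from 0.1133 to 0.1421), with no filter (0.1001) and under both other scalings (0.1168 and 0.2200). The replicate block also ended its call. An antisense gene is annotated within its span.

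Dusp10 (ENSMUSG00000039384, plus strand of chromosome 1, 184013302 to 184075636), the other JNK and p38 phosphatase, was the member least alike among the nanoparticle libraries. It was at 0.693, 0.647 and 0.709 FPKM in vehicle and 5.70, 1.17 and 1.11 FPKM with nanoparticles. Library 1 held 283 reads of it (exact Poisson 95% interval 251 to 318), against 59 and 65 reads in libraries 2 and 3 and 39 to 45 reads in vehicle. Its level in library 1 was thus 4.996 times the mean of libraries 2 and 3. The log2 change was 0.90 with a 95% interval of -0.18 to 1.97 (limma adjusted p = 0.1741). Without library 1 it was smaller, 0.35, with an interval of 0.12 to 0.57 and a limma adjusted p of 0.0157. This was the only one of 14 alternatives in which Dusp10 passed, and Dusp10 stayed in that test only because library 1 still counted towards the filter. The protein coding gene 1700056E22Rik is annotated on the other strand of the same span.

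**Figure D2:**
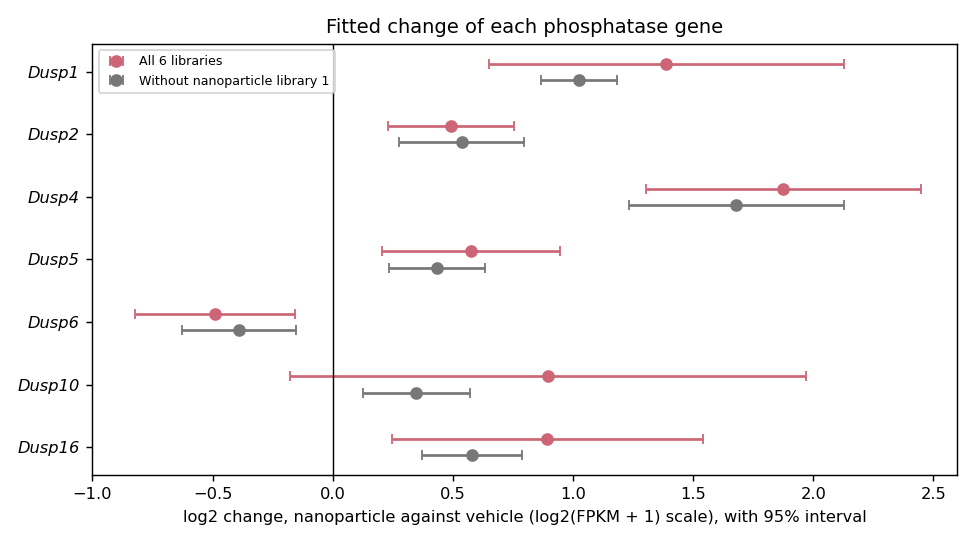
Fitted log2 change of each gene (points) with its 95% interval (bars), with all 6 libraries (red) and without nanoparticle library 1 (grey). The interval of Dusp10 crosses 0 with all libraries, and the intervals of Dusp1, Dusp10 and Dusp16 narrow most when library 1 is left out.

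Nanoparticle library 1 was more than 2-fold above the mean of libraries 2 and 3 in 3 of the 7 genes (Dusp1, Dusp10 and Dusp16), compared with 7.89% of all tested genes, and more than 2-fold below it in 0 of 7, compared with 11.9%. In the other members it held 1.499 times that mean for Dusp4, 1.37 times for Dusp5, 0.858 times for Dusp2 and 0.794 times for Dusp6. The 3 genes that stood out encode enzymes known for acting on p38 and JNK. Dusp2, whose product also acts on p38, and Dusp4, whose product also acts on JNK, were not among them. These ratios are a description of 1 library, seen in the data and not tested.

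The order of the members by level also differed between the groups. In vehicle it was Dusp1, Dusp6, Dusp5, Dusp4, Dusp16, Dusp2 and Dusp10, with ranges that did not overlap between neighbours except for Dusp2 and Dusp10. With nanoparticles Dusp4 stood in the second place and Dusp6 in the fourth, and the ranges of Dusp4 and Dusp5, of Dusp6 and Dusp16, of Dusp16 and Dusp10, and of Dusp10 and Dusp2 overlapped. The summed level of the 7 genes was 66.2, 65.0 and 65.2 FPKM in vehicle and 191, 114 and 105 FPKM with nanoparticles. Dusp6 contributed 26.7% ± 1.39 of this sum in vehicle and 9.87% ± 4.21 with nanoparticles (SD, n = 3 each), with ranges of 25.5% to 28.2% and 5.47% to 13.9%. Dusp4 went from 8.10% ± 1.27 to 16.9% ± 3.20 and Dusp1 from 36.3% ± 1.66 to 48.7% ± 6.16 (SD, n = 3 each). Dusp5 was higher in FPKM but a smaller part of the sum, at 21.7% ± 2.08 and 16.5% ± 2.23. The shares of Dusp2, Dusp10 and Dusp16 overlapped between the groups. The ratio of Dusp1 to Dusp6, which no scaling of libraries can move, was 1.45, 1.41 and 1.24 in vehicle and 10.2, 4.34 and 3.29 with nanoparticles. The ratio of Dusp4 to Dusp6 was 0.355, 0.319 and 0.242 in vehicle and 2.79, 2.00 and 1.07 with nanoparticles. In both ratios the groups lay apart and library 1 was the highest, and both were chosen after the values were seen.

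**Figure D3:**
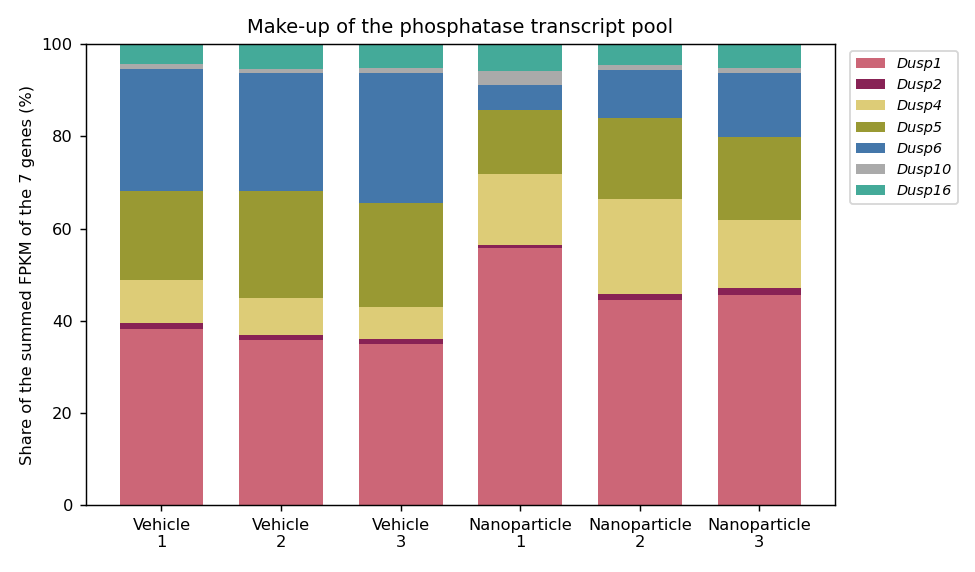
Share of each gene in the summed FPKM of the 7 genes (stacked bars to 100%), by library. The Dusp6 share is 25.5% to 28.2% in vehicle and 5.47% to 13.9% in nanoparticle libraries, and the shares of Dusp1 and Dusp4 are larger in every nanoparticle library.

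The closest profiles to each member were sought among 6246 other protein coding genes, as the root mean square difference of centred log2(FPKM + 1) over the 6 libraries. Dusp1 was closest to Pvr (0.0642), a cell adhesion receptor, and Eng (0.0758), a coreceptor of the TGF-beta family. Dusp4 was closest to Irak3 (0.133), an inhibitor of Toll-like receptor signalling, and Mov10 (0.166). Irak3 was at 6.39, 5.93 and 5.71 FPKM in vehicle and 30.5, 23.5 and 20.2 FPKM with nanoparticles, with a step between the groups much like that of Dusp4. Dusp16 was closest to Glrx (0.0280), a glutaredoxin, and Pkp4 (0.0769). Dusp10 was closest to Rgs1 (0.0767), a regulator of G protein signalling, and Pfkfb3 (0.0790), which drives glycolysis. Rgs1 was at 22.5, 20.99 and 22.4 FPKM in vehicle and 81.8, 29.4 and 30.1 FPKM with nanoparticles, and so shared the high library 1 of Dusp10. The nearest genes to Dusp5 were Cars (0.0242) and Stk40 (0.0365), those to Dusp2 were Chordc1 (0.0438) and Dld (0.0444), and those to Dusp6 were Ppp1cc (0.0407), a catalytic subunit of protein phosphatase 1, and Lrrc20 (0.0492). Among the members themselves the most alike were Dusp5 and Dusp16 (0.236) and Dusp2 and Dusp5 (0.237), and the least alike were Dusp4 and Dusp6 (1.25). The added 1 shrinks differences in genes near or below 1 FPKM, such as Dusp2 and Dusp10, so closeness to them depends in part on the pseudocount. Library 1 held 0.858 times the mean of nanoparticle libraries 2 and 3 in Dusp2 and 1.37 times in Dusp5.

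The other phosphatases of MAP kinases went both ways, as did all tested genes, of which 17.0% were called higher and 16.2% lower. Of the remaining classical members, Dusp7, a cytoplasmic ERK phosphatase like Dusp6, fell from 9.60, 8.93 and 9.15 to 4.23, 3.44 and 3.79 FPKM, with a log2 change by limma of -1.09 ± 0.101 (SE) and an adjusted p of 6.1e-04. Its change was about the same without library 1, at -1.15. Dusp8 and Dusp9 were below the filter. Dusp8 had 5 to 10 reads in vehicle and 58, 15 and 32 reads with nanoparticles, and Dusp9 overlapped between the groups. Of 10 tested atypical dual-specificity phosphatases, smaller enzymes without the MAP kinase binding domain, 2 rose, 2 fell and 6 did not pass. Dusp14 went from 0.310, 0.130 and 0.246 to 10.1, 2.73 and 2.91 FPKM (log2 change 2.15, limma adjusted p = 0.0096), a gene that passed the filter only through the nanoparticle group. Its vehicle level rests on 12, 5 and 10 reads, against 321, 88 and 109 reads with nanoparticles, and the fitted change depends on the pseudocount, at 3.79 with a pseudocount of 0.1 and 4.22 by limma-voom. Dusp28 rose (log2 change 1.32, limma adjusted p = 9.5e-04) and Dusp3, a phosphatase of ERK and JNK, fell (log2 change -0.72, limma adjusted p = 0.0024). Among 6 tested phosphatases of other classes, 2 rose, 1 fell and 3 did not pass. Ptpn7, the leukocyte tyrosine phosphatase of ERK and p38, fell from 26.6 ± 1.31 to 12.7 ± 0.971 FPKM (SD, n = 3 each, limma adjusted p = 7.7e-04). Ppp2ca, a catalytic subunit of protein phosphatase 2A, rose by a log2 change of 0.51 (limma adjusted p = 0.0058), but both other scalings ended this call, at 0.18 with total recovered reads (limma adjusted p = 0.1468) and 0.056 with equal sums of FPKM (0.6822). Ppm1b had 0.38 (limma adjusted p = 0.0234), which became 0.060 (limma adjusted p = 0.6248) with total recovered reads and turned to -0.055 with equal sums of FPKM. Its call was also lost without any single vehicle library or nanoparticle library 2 or 3 (limma adjusted p from 0.0553 to 0.1147). Without nanoparticle library 1, 4 atypical phosphatases were higher and 2 lower, and of the other classes 3 were higher and 1 lower.

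Of the kinases that these phosphatases act on and those upstream, fewer passed with all 6 libraries than without nanoparticle library 1. Of 8 tested MAP kinases 1 fell and 7 did not pass, and without library 1 there were 1 higher and 2 lower. The shares of all tested genes called in these fits were 33.2% and 64.8%. The p38 alpha kinase Mapk14 fell from 30.3, 28.4 and 29.9 to 17.0, 23.8 and 21.5 FPKM (log2 change -0.50 ± 0.140 SE, with a limma adjusted p of 0.0361), and it missed the threshold under 6 alternatives, among them leaving out any single vehicle library or nanoparticle library 3 (limma adjusted p from 0.0639 to 0.1275). Upstream, 1 of 6 MAP kinase kinases rose, namely Map2k1, the ERK activating kinase MEK1, from 24.4 ± 2.15 to 58.8 ± 17.5 FPKM (SD, n = 3 each, limma adjusted p = 0.0063; 0.0583 with equal sums of FPKM). Without library 1, 2 were higher and 1 lower. Of 14 tested MAP3 kinases 2 rose, 1 fell and 11 did not pass, while without library 1 there were 3 higher and 7 lower. Map3k8, the kinase TPL2 that links Toll-like receptors to MEK1, rose from 2.46, 2.08 and 2.17 to 7.94, 7.4999 and 7.32 FPKM (log2 change 1.41, SE 0.0946, limma adjusted p = 2.0e-04). Its 3 nanoparticle libraries were nearly level, unlike those of Dusp1.

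Among 8 tested kinases activated by MAP kinases, 1 rose, 4 fell and 3 did not pass, and without nanoparticle library 1 there were 3 higher and 4 lower. Of all tested genes, 33.2% and 64.8% were called in these fits. Mapkapk2, the p38 effector MK2, rose from 59.6, 64.3 and 58.8 to 224, 224 and 225 FPKM, with library 1 level with the others (log2 change 1.87, SE 0.104, limma adjusted p = 1.1e-04). Rps6ka3, an ERK effector (log2 change -0.89, limma adjusted p = 0.0014), and Mknk1, a kinase of translation factor eIF4E (-0.94, limma adjusted p = 0.0026), fell. Of 7 tested scaffolds, 3 fell and 4 did not pass, and without library 1 there were 2 higher and 3 lower. Arrb1 had a log2 change of -1.08 (limma adjusted p = 0.0049) and Spag9 of -0.42 (limma adjusted p = 0.0458), a call lost without any single vehicle library or nanoparticle library 2 or 3 (limma adjusted p from 0.0846 to 0.1571). Of the Sprouty and Spred genes, feedback inhibitors of the ERK pathway, 0 of 5 tested passed by limma, 3 had an unadjusted p under 0.05 and 0 passed by limma-voom. Without library 1, 2 of them were higher and 2 lower past the threshold.

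The immediate early genes, transcription factors and regulators that MAP kinases switch on within minutes, were split: of 18 tested genes 5 rose, 5 fell and 8 did not pass, with a median log2 change of -0.07. Without library 1 there were 6 higher and 7 lower. The share called with all libraries was 55.6%, against 33.2% of all tested genes, and without library 1 64.8% of all tested genes were called. Ier3, a stress-inducible regulator of apoptosis, rose from 26.0, 24.0 and 23.2 to 277, 164 and 149 FPKM (log2 change 2.91, SE 0.243, limma adjusted p = 4.1e-04). Klf4 fell from 17.9 ± 0.487 to 2.55 ± 0.834 FPKM (SD, n = 3 each, limma adjusted p = 2.3e-04) and Myc from 16.04 ± 0.775 to 4.14 ± 1.77 FPKM (SD, n = 3 each, limma adjusted p = 0.0036). Fos and Egr1, named after their values were seen because they are classical ERK targets, had log2 changes of -0.94 (limma adjusted p = 0.0019) and -0.13 (limma adjusted p = 0.8440). These picks do not stand for the list, in which 5 genes rose and 5 fell and Ier3 is the only riser named here. ERK activity was not measured. Egr1 was at 3.81, 4.804 and 4.96 FPKM in vehicle and 9.27, 2.68 and 2.36 FPKM with nanoparticles. Library 1 thus lay above and libraries 2 and 3 below all vehicle libraries, and without library 1 the log2 change was -0.64 (limma adjusted p = 0.0030).

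**Figure D4:**
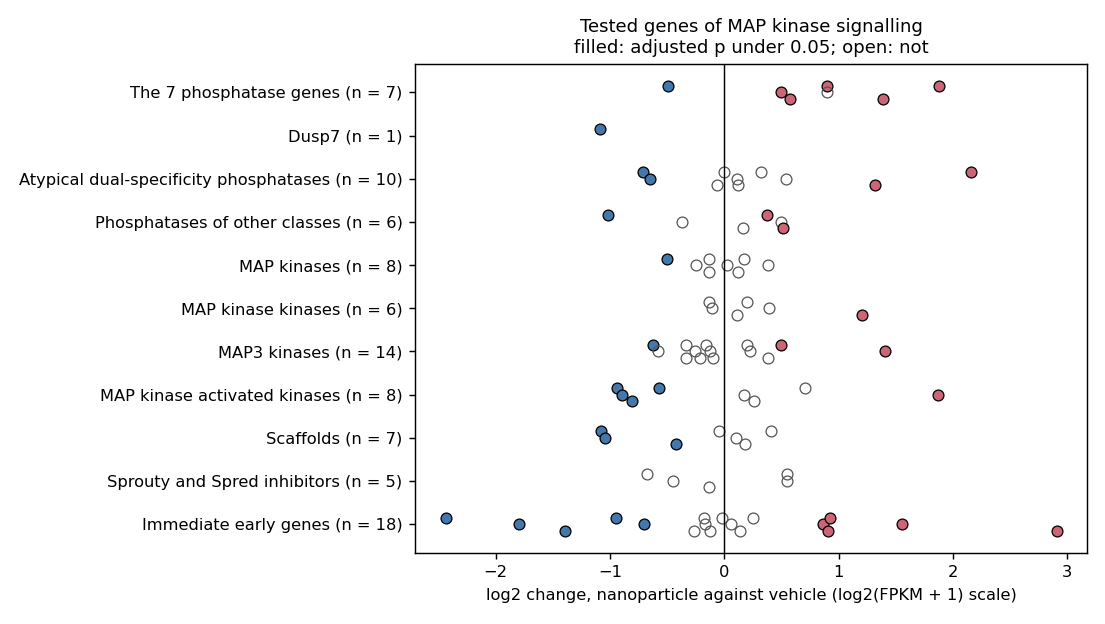
Log2 change of every tested gene in each list of MAP kinase signalling (1 point per gene), filled red or blue where the adjusted p was under 0.05 and open where it was not, with n the number tested. The 7 phosphatase genes hold 5 called higher and 1 called lower. Most MAP kinases, MAP kinase kinases and MAP3 kinases are open points. Filled points make up 62.5% of the 8 MAP kinase activated kinases and 55.6% of the 18 immediate early genes, against 33.2% of all tested genes. Without nanoparticle library 1 (not drawn), 64.8% of all tested genes were called. There, 3 of 14 MAP3 kinases were higher and 7 lower, 3 of 8 MAP kinase activated kinases higher and 4 lower, and 6 of 18 immediate early genes higher and 7 lower.

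Every call but that of Dusp4 was lost in at least 1 of the settings tried. The directions of the 7 genes did not change, but with groups that lay apart most settings could not turn them. The plot of the settings shows that Dusp4 was past the threshold in every one, Dusp10 in 1, and the remaining genes in some.

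**Figure D5:**
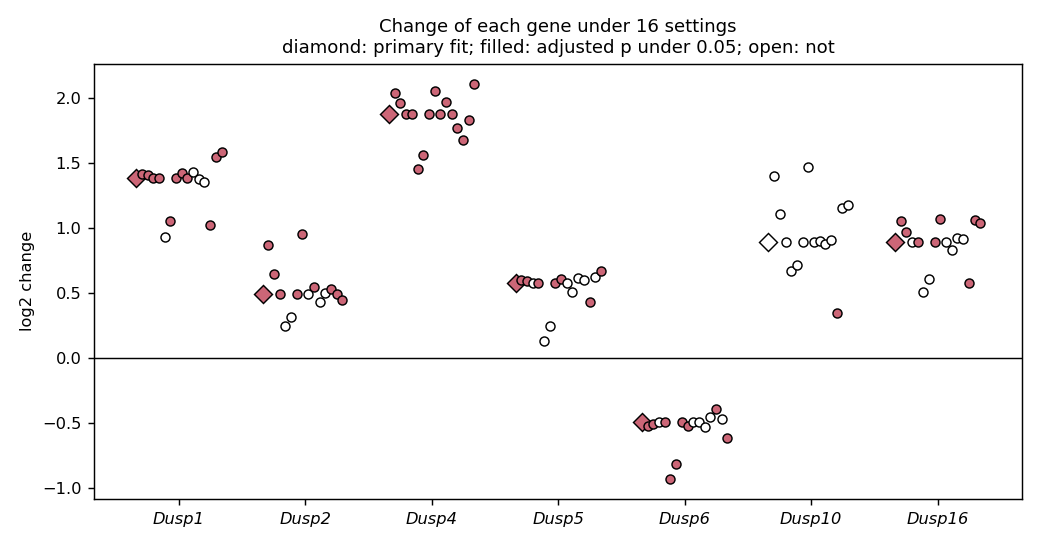
Log2 change of each gene in the primary fit (diamond) and under each alternative setting (circles), filled where the adjusted p was under 0.05. Dusp4 is filled throughout at 1.45 to 2.11, and Dusp10 is filled once, without nanoparticle library 1 at 0.35. No gene crosses 0, which most settings could not have changed because the groups lay apart.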

How the data were processed

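RNA was sequenced from 3 vehicle and 3 nanoparticle libraries, grouped by their titles. Per the labels' protocols, libraries were made with a NEBNext Ultra II kit from 1 µg of total RNA. CASAVA, STAR 2.5, HTSeq, edgeR 3.16.5, DESeq2 and the builds hg19 and mm10 are named, with no role, per the submitters' processing notes. The authors deposited 2 tables with identical values, which were treated as FPKM because multiplying them by the GENCODE M21 exon length and 1 scale per library gave whole reads (within 0.01) for 95.8% to 96.1% of nonzero values. Dusp1 did so with a length of 2697 in place of 3311 bases. Totals were 17283470 to 21978083 reads, and how reads shared between genes were handled is not given in the sources used here. Because FPKM are not counts, edgeR and DESeq2 were not run.

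The 10682 genes that reached 1 FPKM in 3 or more libraries were tested. To each value 1 was added, log2 was taken, and limma 3.58.1 in R 4.3.3 was fitted with group as its term and a mean-variance trend, which was tested on simulated data. Adjusted p-values are Benjamini and Hochberg's over all tested genes. The scaling in the deposited FPKM assumes that most genes do not change. Alternatives were other pseudocounts, filters and scalings, no trend, limma-voom on recovered reads, a replicate block and leaving out each library. Members, lists and tests were chosen with earlier results of these data known. The text names all members, up to 3 genes per list with the largest change past the threshold (groups apart, at least 5 FPKM in the higher group), and the 2 closest profiles per member, and 1 gene of the lists is not reported here. Tables were handled with Python 3.11.15, numpy 2.4.6, pandas 2.3.3 and scipy 1.17.1, and figures were drawn with matplotlib 3.10.9.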

Additional observations from a re-analysis of the deposited data

How the results depend on the processing

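None of the 7 genes changed direction under any alternative that tested it, but for most alternatives this was fixed beforehand. Because the groups lay apart in all 7, leaving out a library or changing the pseudocount could not turn a direction. Other filters, no trend and the replicate block leave the log2 change as it is. The other scalings could have turned a direction and did not. The count of all genes past the threshold was 3550 (1817 higher, 1733 lower). It was 2198 with a mean of at least 5 FPKM, where fewer genes were tested (6110), and 2141 to 6923 when 1 library was left out, the highest without nanoparticle library 1. With total recovered reads as the scale the split was 1108 higher and 3613 lower, and with equal sums of FPKM 881 higher and 4307 lower. The number of members called higher was 5. It was 3 with no filter, 1 with equal sums of FPKM, 2 with total recovered reads, 2 with the replicate block and 1 to 6 when 1 library was left out, and the cause was not tested. The number called lower was 1 (Dusp6). It was 0 with no filter and 0 with the replicate block, and 0 to 1 when 1 library was left out, and in each of these fits Dusp6 kept an unadjusted limma p under 0.05 (0.0101 with no filter, 0.0176 with the block), while limma-voom also called 1. Ppm1b turned to a log2 change of -0.055 with equal sums of FPKM.

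The labels number the libraries 1 to 3 in each group, but say nothing of pairing. Deviations of same-numbered libraries correlated at 0.0654, 0.113 and -0.0577, and 4 of 6 libraries correlated best with their own number. The numbers were not taken to pair the libraries, and the replicate block gave 2785 genes. Depth limits the low genes: Dusp2, Dusp8, Dusp9 and Dusp10 had 5 to 65 reads in every library, except 283 of Dusp10 in nanoparticle library 1, and Dusp14 had 5 to 12 reads in vehicle.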
